A study of Mus musculus with 54 samples.

Results

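Round spermatids, the haploid cells that follow meiosis and precede the elongation of the sperm head and tail, were compared between wild type mice and combined mutant mice that carry 1 functional copy of Ctcf and none of Boris. WT animals were Ctcf+/+Boris+/+ and combined mutant (CM) animals were Ctcf+/-Boris-/-. Both were on the C57BL/6 background and 3 months old. The comparison rests on 6 poly(A) RNA-seq libraries, 3 WT and 3 CM, of 35 RNA-seq libraries and 54 samples in the series. They were chosen by their genotype and cell type labels and not by any measured value. The same count table holds 3 round spermatid libraries from Ctcf+/-Boris+/+ mice (HET) and 3 from Ctcf+/+Boris-/- mice (KO), which are given beside CM where a value calls for it and share the WT libraries with it.

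Each germ cell preparation pooled 4 mice, so an animal cannot be told from its pool. Tubules were freed with collagenase, dissociated with trypsin and fractionated by centrifugal elutriation. The spermatid fraction was then sorted on DNA content with Vybrant DyeCycle Green, with dead cells removed. Both deletions are present in every cell of the animal, so the CM spermatids had passed through all earlier stages with the same genotype. The labels do not tie the 3 libraries of a group to separate pools, so the p-values measure the spread between these libraries, which may be technical. With 3 libraries against 3, an exact two-sided permutation test of a single value cannot give a p below 0.1.

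CTCF is a zinc finger protein found in nearly all cells that binds DNA at insulators and promoters and halts cohesin at the bases of chromatin loops. BORIS, the product of Ctcfl, is its germ line paralog, with a closely similar zinc finger region, and binds a subset of the same sites in the testis. In round spermatids a haploid programme of transcription, driven in part by CREM, supplies the acrosome, the flagellum and the proteins that later replace histones, while the X chromosome, silenced in meiosis, stays largely repressed.

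Binding sites of both proteins in whole testis lie at some of the genes measured here, and 2 of them are shown because their genes were singled out in the study. Each window is read from mm9 on the plus strand, 5′ to 3′. Capitals mark a match to the core of the CTCF motif, spelled CC, any 3 bases, AG, any 2 bases and GGC, and searched on both strands.
Kit, chr5:75971715-75971834: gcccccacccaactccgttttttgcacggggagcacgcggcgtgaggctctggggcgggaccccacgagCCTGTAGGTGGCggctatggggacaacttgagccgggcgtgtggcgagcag
Prss50, chr9:110760361-110760470: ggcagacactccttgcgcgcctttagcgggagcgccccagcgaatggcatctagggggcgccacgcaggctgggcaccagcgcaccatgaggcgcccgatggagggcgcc
The Kit window lies in intron 1 under a WT CTCF peak with its summit 794 bases after the annotated start (height 132) and a BORIS peak (height 124). The Prss50 window ends at the base before the annotated start, under a CTCF peak (height 1298) and a BORIS peak (height 1403), and holds 0 matches. Neither site had a CTCF peak in the CM list. A match stood in 60.6% of 120-base windows at peaks bound by both proteins, in 44.2% at peaks bound by CTCF alone and in 5.24% of windows at promoters of the genes tested. Windows at peaks bound by both proteins held 2 or more matches in 3.08%. Sites that depart from this fixed core are missed, so a lack of matches is not a lack of binding sites. The paper maps 2 CTCF motifs at the Kit site and describes a paired site for CTCF and BORIS at the Prss50 promoter.

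The deleted genes were examined first. Counts cover the whole gene, so reads from the deleted exons cannot be separated from the rest. Ctcf stood at 45.9, 30.3 and 28.5 CPM (counts scaled to the size of the library) in the WT libraries and at 169, 48.7 and 39.1 CPM in the libraries labelled CM. The level was thus not lower with 1 copy deleted: it lay above all WT libraries in CM libraries 1 and 2 and inside their range in CM library 3 (log2 fold change 1.29 ± 0.54 SE, edgeR adjusted p = 0.235). In HET spermatids Ctcf was 32.9, 21.7 and 24.5 CPM, and in whole testis it was lower in the CM libraries, 27, 28.1 and 24.8 CPM against 46.4, 42.5 and 44 CPM (log2 fold change -0.74, edgeR adjusted p = 0.0329). The 3 libraries are therefore called CM by their label. Ctcfl was low in both groups and lower in CM, at 2.68, 4.96 and 3.27 CPM in WT and 2.5, 1.85 and 1.1 CPM in CM, with no overlap (-1.0 ± 0.48, edgeR adjusted p = 0.285). CM library 1 lay close to WT library 1, and reads remained in all CM libraries.

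Rltpr, which encodes a regulator of actin filament capping and lies on chromosome 8 with 3351 bases between its start and the end of Ctcf, was the only gene to pass the edgeR test. It stood at 0.893, 1.12 and 0.583 CPM in WT and at 56, 30.6 and 33.1 CPM in CM. The groups were far apart (log2 fold change 5.52 ± 0.41, edgeR adjusted p = 0.0183). HET spermatids carried 65.6, 77.2 and 60.5 CPM and KO spermatids 1.95, 1.85 and 1.58 CPM, so the high level was found in both genotypes with the Ctcf deletion. It also rose in CM whole testis (5.24 ± 0.36, edgeR adjusted p = 0.00225) and CM spermatocytes (5.14 ± 0.27, edgeR adjusted p = 0.00778). Leaving out WT library 1, 2 or 3 or CM library 3 took the adjusted p past the threshold, with log2 fold changes of 5.3 to 5.74 over those 4 fits.

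Spo11, whose product makes the DNA double strand breaks of meiosis, lies on chromosome 2 with 100032 bases between it and Ctcfl. It stood at 56.8, 60.4 and 65.5 CPM in WT and at 21.9, 16 and 24.3 CPM in CM. All CM libraries were below all WT libraries (-1.55 ± 0.22, edgeR adjusted p = 0.107, DESeq2 adjusted p = 6.43e-07). HET spermatids were at the WT level, with 60.7, 59.4 and 61.8 CPM. KO spermatids were lowest, with 12.4, 12.1 and 9.69 CPM, so the lower level was found in both genotypes with the Boris deletion.

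**Figure D1:**
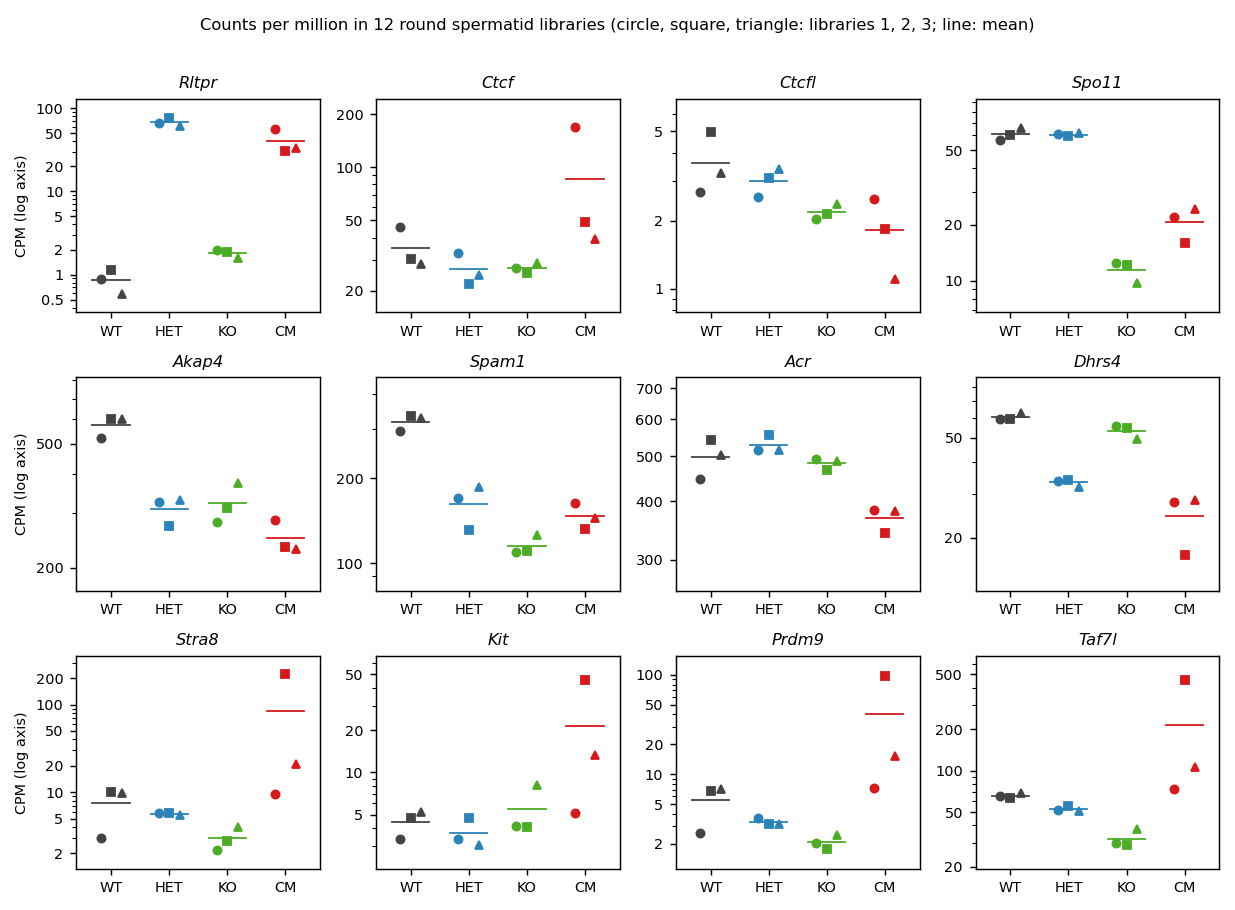
Library-size scaled counts (CPM, log axis) of 12 genes in the 12 round spermatid libraries, grouped by genotype on the x axis; circles, squares and triangles are libraries 1, 2 and 3 and lines are group means. Rltpr is high in HET and CM, Akap4, Spam1 and Dhrs4 are lower in all 3 CM libraries than in all 3 WT libraries, and CM library 2 stands far above the other libraries for Stra8, Kit, Prdm9 and Taf7l.

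The libraries held 50861159 to 98545423 counts in WT and 63503144 to 80170849 in CM. A count was found for 17504 to 17985 genes in WT and for 14932 to 16670 in CM. CM library 2 stood apart. Its Spearman correlation with the WT libraries was 0.887 to 0.888, against 0.971 to 0.982 for CM library 1, 0.953 to 0.954 for CM library 3 and 0.98 to 0.992 among the WT libraries. In CM library 2, 3423 genes were over 2-fold above the WT mean and 1990 over 2-fold below it. The same counts were 230 and 452 in CM library 1 and 1039 and 1341 in CM library 3. What set CM library 2 apart was not tested, and the medians of most gene lists are given without it as well. Counts of a list are read against the shares over all genes given next.

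Over all genes, 1 of 15298 tested passed the edgeR quasi-likelihood test at an adjusted p under 0.05 and a fold change over 2, which is 0.00654%, and it was Rltpr. None passed on the lower side. At an unadjusted p under 0.05, 1821 genes (11.9%) were higher and 1315 (8.6%) lower, and the next smallest adjusted p was 0.107, shared by many genes. DESeq2 called 1052 genes higher (7.48% of 14057) and 439 lower (3.12%), and its calls made up 6.84% higher and 2.86% lower of the genes edgeR tested. Without CM library 2 DESeq2 called 209 higher and 571 lower, without WT library 2 75 and 60, and without WT library 3 78 and 70, so the DESeq2 counts rest on single libraries of both groups. In 2025 genes (13.2%) all CM libraries were above all WT libraries, and in 2345 (15.3%) all were below. With a fold change over 2 as well, the counts were 1293 (8.45%) higher and 908 (5.94%) lower. The log2 fold change varied with the level of the gene. Genes below 1 CPM in HET spermatids had a median of 0.41, with 36.5% above 1 and 17.6% below -1. Genes above 100 CPM had a median of -0.2, with 0.344% and 2.26%.

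The genes on the higher side were led by 1 library. CM library 2 was the highest CM library in 1159 of the 1293 genes (89.6%). The median differences from WT over these genes were 0.51, 2.27 and 0.91 log2 units in CM libraries 1, 2 and 3. Among the 908 genes on the lower side CM library 1 was lowest in 89, CM library 2 in 493 and CM library 3 in 326, with medians of -0.78, -1.26 and -1.18. Without CM library 2, 833 genes were higher and 1105 lower by the same measure.

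Genes of the round spermatid programme were lower in CM. All 15 round spermatid markers had a negative log2 fold change, from -1.22 to -0.83 with a median of -0.98, where the median over all genes tested was -0.00013. None was called by edgeR. In 13 of the 15 all CM libraries were below all WT libraries, against 15.3% of all genes, and DESeq2 called 5 lower. The summed level of the list was 4140, 5540 and 5050 CPM in WT and 2370, 2820 and 2040 CPM in CM. In bulk RNA a smaller share of cells that express a gene and less of its RNA per cell cannot be told apart. With CM library 2 left out, the median was -1.13, 14 of 15 did not overlap and DESeq2 called 8, against 20.6% and 533 of 15298 for all genes in that setting.

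Akap4 encodes the main protein of the fibrous sheath of the sperm tail. It stood at 524, 600 and 600 CPM in WT and 285, 233 and 230 CPM in CM (-1.20 ± 0.17, edgeR adjusted p = 0.107, DESeq2 adjusted p = 7.23e-06). HET spermatids, at 324, 273 and 329 CPM, and KO spermatids, at 280, 311 and 374 CPM, were below WT as well. Tssk2, a kinase of late spermiogenesis, went from 146, 166 and 155 CPM to 84.4, 55.9 and 59.7 CPM (-1.22 ± 0.20, DESeq2 adjusted p = 0.000226). Acrv1, an acrosomal vesicle protein, stood at 212, 251 and 240 CPM in WT and 120, 120 and 96.2 CPM in CM (-1.06 ± 0.17, DESeq2 adjusted p = 0.00025). All 3 genes were below WT in every CM library. Prm1, the protamine that compacts sperm DNA, varied more, from 98.9, 199 and 186 CPM to 44.8, 151 and 33.6 CPM, and its groups overlapped (-1.07 ± 0.56, edgeR adjusted p = 0.327).

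Against the same WT libraries, the median of the 15 markers in the fit of all 12 spermatid libraries was -0.58 for HET, -0.15 for KO and -1.02 for CM. These values share the WT libraries, and their differences were not tested as a list.

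The acrosome, the vesicle whose enzymes and membrane proteins act at fertilisation, showed the same side. The lists share members. Every round spermatid marker is also in this list or in that of flagellum, ion channels, energy metabolism, nuclear packaging or kinases. Their results are therefore not independent of those of the markers. Of 36 genes 34 were negative, with a median of -0.60, and 18 did not overlap on the lower side against 1 on the higher side, where the shares of all genes were 15.3% and 13.2%. DESeq2 called 6 lower, against 2.86% of all genes. Spam1, a hyaluronidase of the sperm surface, stood at 294, 332 and 327 CPM in WT and at 164, 132 and 145 CPM in CM (-1.11 ± 0.16, edgeR adjusted p = 0.107, DESeq2 adjusted p = 1.25e-05). Hyal5, a related hyaluronidase, went from 180, 211 and 228 CPM to 108, 78.7 and 74.9 CPM (-1.24 ± 0.20, DESeq2 adjusted p = 0.000169). Acr, the acrosomal protease acrosin, differed less, with 447, 542 and 503 CPM in WT and 383, 343 and 381 CPM in CM (-0.43 ± 0.16). Adam3, needed for sperm to bind the zona pellucida, was at 2480, 2710 and 2840 CPM in WT and 1900, 1480 and 2300 CPM in CM (-0.50). Gopc, which acts in vesicle traffic to the acrosome, was the gene on the other side, at 34.1, 33 and 29.5 CPM in WT and 51.5, 72 and 45 CPM in CM (0.80). Left to CM libraries 1 and 3, the acrosome median was -0.46 and 18 genes did not overlap on the lower side, against 20.6% of all genes.

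Of 50 flagellum genes 45 were negative, with a median of -0.41. The 5 positive genes included the dyneins Dnahc8 (0.59) and Dnahc2 (0.33). The summed level of the list was 30400, 29500 and 30000 CPM in WT and 29000, 17200 and 29600 CPM in CM. The sum was thus near the WT level in CM libraries 1 and 3. All CM libraries were below all WT libraries in 25 and above them in 0, against 15.3% and 13.2% of all genes, and DESeq2 called 8 lower, against 2.86%. Fscb, a calcium binding protein of the fibrous sheath, stood at 155, 213 and 208 CPM in WT and at 74.2, 70.1 and 71.2 CPM in CM, with the 3 CM libraries alike (-1.42 ± 0.18, edgeR adjusted p = 0.107, DESeq2 adjusted p = 6.38e-07). Capza3, an actin capping subunit of the sperm head, was at 107, 130 and 146 CPM and 64.2, 51.5 and 51.9 CPM (-1.19). Ccin, a protein of the sperm head cytoskeleton, was at 28.7, 37.6 and 36.8 CPM and 18.3, 17.4 and 9.9 CPM (-1.17). Without CM library 2 the median was -0.27, 26 were lower and 2 higher without overlap, against 20.6% and 17.7% of all genes, and DESeq2 called 8 lower.

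Ion channel and transporter genes of sperm split between individual members. Their median over 18 genes was -0.21, and it was 0.047 without CM library 2. The groups did not overlap on the lower side in 8 and on the higher side in 0, against 15.3% and 13.2% of all genes. Without that library these counts were 8 and 2, against 20.6% and 17.7%. Catsper1, a pore subunit of the sperm calcium channel, stood at 276, 273 and 247 CPM in WT and 156, 87.5 and 121 CPM in CM (-1.13 ± 0.23, DESeq2 adjusted p = 0.00226). Lrrc52, an auxiliary subunit of the sperm potassium channel, was at 27, 34.6 and 38.1 CPM and 12.8, 12.3 and 7.99 CPM (-1.59 ± 0.28, DESeq2 adjusted p = 8.44e-05). Atp1a4, the sperm sodium pump, was at 158, 154 and 152 CPM and 103, 60.9 and 47.7 CPM (-1.13). All 3 were below WT in every CM library, with CM library 1 nearest to WT.

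Genes of sperm energy metabolism had a median of -0.40 over 19 genes, with 12 below WT without overlap and 0 above, against 15.3% and 13.2% of all genes. Both counts were the same without CM library 2, where the shares were 20.6% and 17.7% and the median -0.31. Aldoart1, a sperm aldolase, went from 100, 108 and 114 CPM to 45.1, 59.5 and 41.8 CPM (-1.14 ± 0.19, DESeq2 adjusted p = 0.000502). Gapdhs, the sperm form of a glycolytic enzyme, stood at 279, 305 and 258 CPM in WT and 173, 142 and 112 CPM in CM (-0.98). Ldhc, the testis lactate dehydrogenase, had a log2 fold change of -0.34.

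The nuclear packaging list, which holds transition proteins, protamines and testis histones, had a median of -0.74 over 21 genes. Its groups did not overlap on the lower side in 6 and on the higher side in 1, against 15.3% and 13.2% of all genes, and DESeq2 called 0, against 2.86% lower and 6.84% higher. Tnp2, a transition protein, was at 50.9, 54.2 and 56.6 CPM in WT and 30.2, 43.6 and 12 CPM in CM. Prm2 was at 101, 104 and 105 CPM and 64.3, 91 and 18.3 CPM. Both were lowest in CM library 3 and nearest to WT in CM library 2, an order that differs from that of the flagellum genes. With CM libraries 1 and 3 alone, the median was -0.39, 9 of the 21 did not overlap on the lower side, against 20.6% of all genes, and DESeq2 called 5 lower, against 533 of 15298.

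Regulators of spermatid transcription were mixed. Of 20 genes 10 were lower without overlap and 2 higher, against 15.3% and 13.2% of all genes, with a median of -0.33 that was -0.20 without CM library 2. Crem, the activator of the haploid programme, stood at 668, 830 and 785 CPM in WT and at 473, 428 and 664 CPM in CM (-0.55). Sox5, a transcription factor with a testis isoform, was at 268, 257 and 261 CPM and 165, 99 and 107 CPM (-1.09 ± 0.22, DESeq2 adjusted p = 0.00286). Sox30 was at 381, 421 and 376 CPM and 266, 183 and 223 CPM (-0.81). Fhl5, a coactivator of CREM, was at 34.3, 41 and 42.1 CPM and 20.4, 18.9 and 6.27 CPM (-1.36). Taf7l, an X-linked subunit of the general transcription machinery, was on the other side, at 65.3, 63.4 and 68.3 CPM and 73.7, 459 and 106 CPM (1.70 ± 0.63, DESeq2 adjusted p = 0.0343), with nearly all of the difference in CM library 2.

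**Figure D2:**
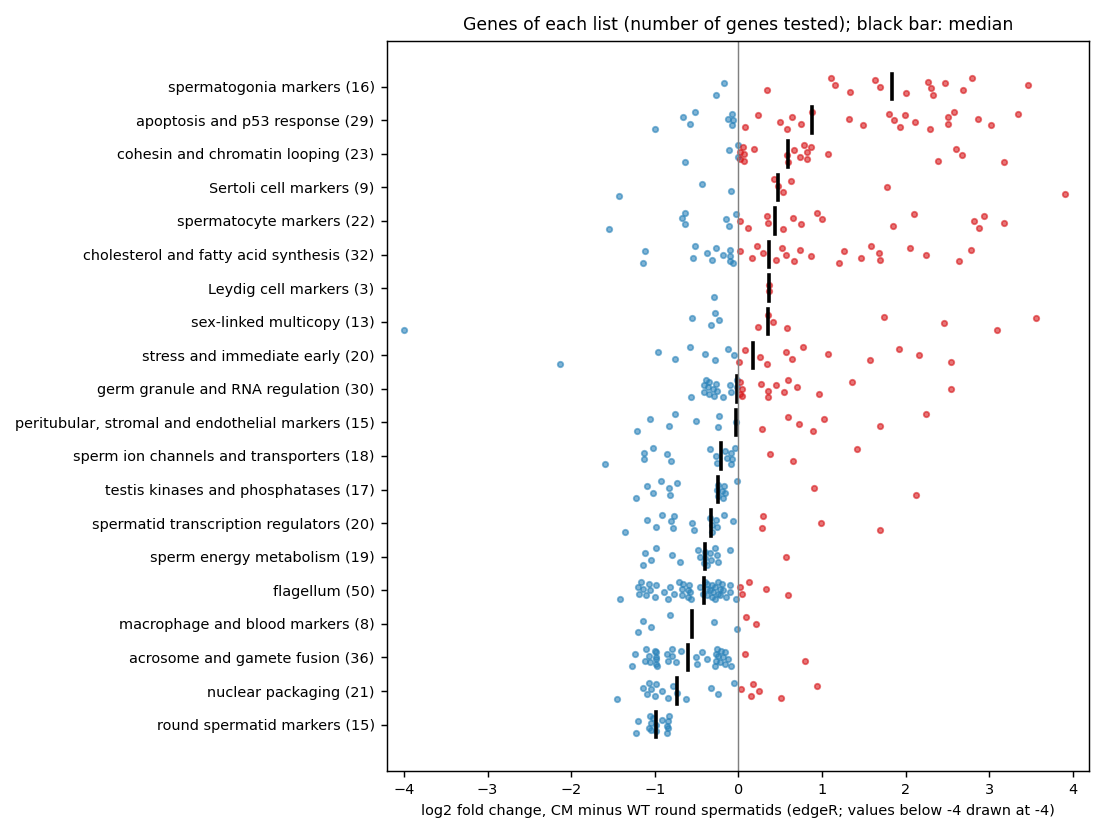
Log2 fold change of CM over WT round spermatids (x axis, edgeR) for the genes of each list (y axis, number tested in brackets); each point is a gene and the black bar is the median. The round spermatid markers all lie below 0, with a median of -0.98, and the spermatogonia markers have a median of 1.84, which was 0.63 without CM library 2.

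Kinases and phosphatases of the testis had a median of -0.24 over 17 genes, and of -0.11 without CM library 2. Of these 5 were lower and 1 higher without overlap, against 15.3% and 13.2% of all genes. Tssk3, a testis kinase, stood at 42.9, 35.6 and 31.9 CPM in WT and 25.7, 15.8 and 13.1 CPM in CM (-1.02 ± 0.30, edgeR adjusted p = 0.171, DESeq2 adjusted p = 0.0278). Germ granule and RNA regulation genes had a median of -0.017 over 30, and of 0.049 without CM library 2, with 6 higher and 4 lower without overlap, against 13.2% and 15.3% of all genes. Dazl, an RNA binding protein of germ cells, was at 31.4, 48.3 and 47.2 CPM in WT and 51.7, 586 and 101 CPM in CM (2.54 ± 0.82, edgeR adjusted p = 0.179). It was above WT in all 3 CM libraries, and by far the most in CM library 2.

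Markers of spermatogonia, the mitotic germ cells, were on the higher side. The 16 that passed the filter, of 21, had a median log2 fold change of 1.84, and DESeq2 called 7 higher and 0 lower, against 6.84% and 2.86% of all genes. Their median differences from WT were 0.49, 2.04 and 0.20 in CM libraries 1, 2 and 3. When CM library 2 was left out the median was 0.63 and DESeq2 called 1. The 5 genes that did not overlap on the higher side stayed at a count of 5 without that library, against 13.2% of all genes with it and 17.7% without it. The summed level of the list, set mostly by Dmrtb1, was 1250, 1080 and 980 CPM in WT and 1200, 1170 and 912 CPM in CM, with no shift.

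Stra8, which is switched on by retinoic acid at entry into meiosis, stood at 3.03, 10.1 and 9.67 CPM in WT and 9.42, 221 and 20.8 CPM in CM (3.46 ± 1.15, edgeR adjusted p = 0.179, DESeq2 adjusted p = 0.0456). Kit, the receptor that marks differentiating spermatogonia, was at 3.35, 4.73 and 5.21 CPM in WT and 5.1, 45.8 and 13.2 CPM in CM (2.27 ± 0.73, edgeR adjusted p = 0.179, DESeq2 adjusted p = 0.0112). HET spermatids held 3.35, 4.7 and 3.05 CPM of Kit and KO spermatids 4.17, 4.05 and 8.13 CPM. For both genes CM library 2 was the highest, CM library 1 lay inside the WT range and CM library 3 above it. Sohlh2, a transcription factor of differentiating spermatogonia, was at 1.75, 2.94 and 2.2 CPM in WT and 3.33, 34.3 and 10.3 CPM in CM (2.80 ± 0.78, DESeq2 adjusted p = 0.00293), above WT in all 3. Neurog3, a marker of undifferentiated spermatogonia, had 0 counts in all 6 libraries.

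Spermatocyte markers had a median of 0.44 over 22 genes, 8 higher and 3 lower without overlap, against 13.2% and 15.3% of all genes, and the median was 0.012 without CM library 2. DESeq2 called 5 higher and 1 lower, against 6.84% and 2.86% of all genes, and without CM library 2 it called 0 and 1. Prdm9, the histone methyltransferase that places recombination sites, stood at 2.57, 6.78 and 7.09 CPM in WT and 7.24, 98.4 and 15.4 CPM in CM (2.88 ± 0.95, DESeq2 adjusted p = 0.00693). Sycp3, a structural protein of the synaptonemal complex, was at 86.8, 106 and 116 CPM and 136, 286 and 195 CPM (1.00 ± 0.28, DESeq2 adjusted p = 0.0232). Sycp1, which forms the transverse filaments of the same complex, was at 271, 418 and 452 CPM and 473, 770 and 938 CPM (0.94). These were above WT in all CM libraries, while the summed level of the list was 4810 to 5340 CPM in WT and 4680, 6000 and 6570 CPM in CM. Of the 22 genes 15 were positive and 7 negative, among the latter Spo11 (-1.55), Rec8 (-0.64) and Stag3 (-0.11). The spermatids were sorted on DNA content, and by the paper's own estimate of purity the fraction still held some other cells. The part of earlier cells in these values was not tested.

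**Figure D3:**
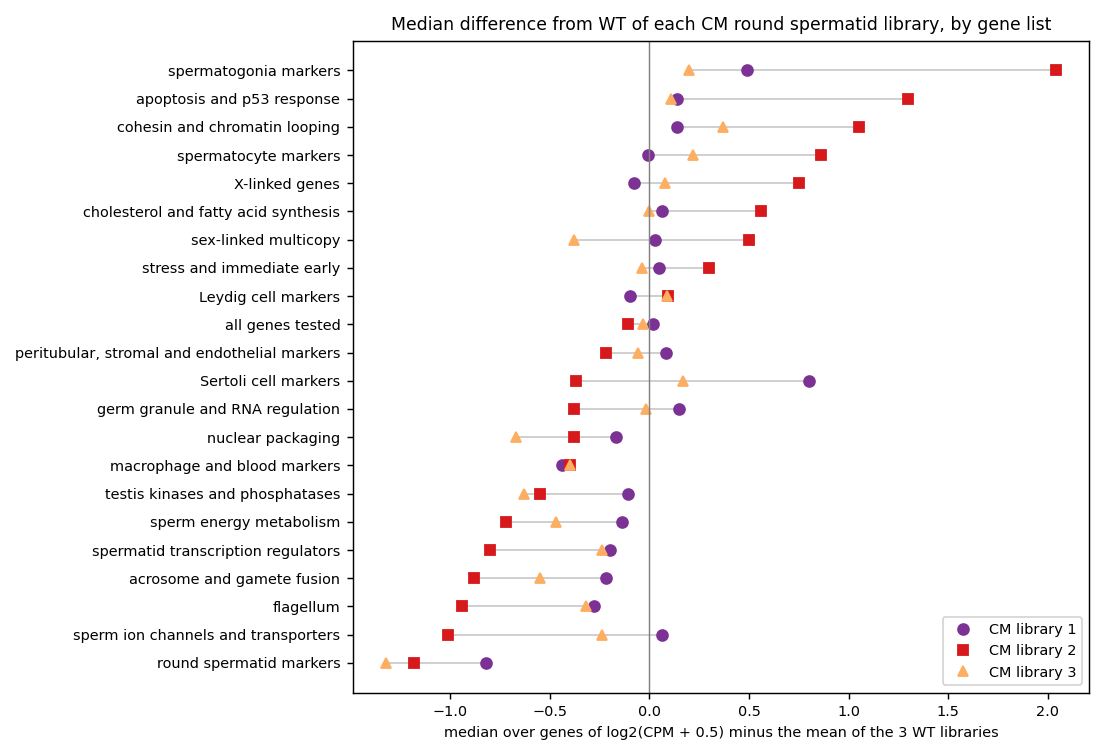
Median over the genes of each list of the difference from the WT mean in log2(CPM + 0.5) units (x axis), drawn separately for CM libraries 1, 2 and 3 (points) by gene list (y axis). The round spermatid markers stand at -0.82, -1.18 and -1.32 in the 3 libraries, while the spermatogonia markers stand at 0.49, 2.04 and 0.20.

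Apoptosis and p53 response genes had a median of 0.88 over 29, with library medians of 0.14, 1.3 and 0.11. Many of them were low, and all genes below 1 CPM in HET spermatids had a median of 0.41. DESeq2 called 4 higher and 0 lower, against 6.84% and 2.86% of all genes, and 0 in either direction without CM library 2, where the median was 0.21. Xiap, an X-linked inhibitor of caspases, stood at 1.89, 2.3 and 2.13 CPM in WT and 2.86, 41.6 and 6.7 CPM in CM (3.02). Trp53, which encodes p53, was at 1.58, 1.49 and 1.3 CPM and 2.23, 5.94 and 2.77 CPM (1.32). Both were above WT in all CM libraries.

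Genes of cohesin and chromatin looping, the machinery that works with CTCF, had a median of 0.59 over 23. The groups did not overlap on the higher side in 8 and on the lower side in 1, against 13.2% and 15.3% of all genes. Smc1a, a core subunit of cohesin on the X chromosome, stood at 8.2, 7.46 and 7.37 CPM in WT and 8.45, 88.9 and 23.4 CPM in CM (2.39, DESeq2 adjusted p = 0.00815). Smc3, its autosomal partner, had a log2 fold change of 0.19, Stag2 of -0.0061 and Rad21 of 0.67. Rec8, the cleavable subunit of meiotic cohesin, was the lower gene, at 111, 94.3 and 93.3 CPM in WT and 83.4, 43.4 and 64.6 CPM in CM (-0.64). In CM libraries 1 and 3 alone the median was 0.20, 10 were higher and 2 lower without overlap, against 17.7% and 20.6% of all genes, and DESeq2 called 0.

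Genes of cholesterol and fatty acid synthesis had a median of 0.37 over 32, and 0.11 without CM library 2. Fads2, a desaturase of long fatty acids, stood at 3.41, 2.3 and 1.69 CPM in WT and 4.06, 21.9 and 4.82 CPM in CM (2.05 ± 0.70, DESeq2 adjusted p = 0.0229). Insig1, which holds back sterol synthesis, was at 2.64, 1.64 and 2.58 CPM and 3.22, 35.6 and 8.48 CPM (2.78). Stress and immediate early genes had a median of 0.17 over 20, and of 0.0085 without CM library 2, with 3 higher and 2 lower without overlap, against 13.2% and 15.3% of all genes. The sex-linked multicopy genes, which share reads with near copies and are uncertain, had a median of 0.35 over 13, and of -0.0035 without CM library 2, with 2 higher and 1 lower without overlap, against the same shares.

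Markers of somatic cells of the testis were low, apart from Aif1. Of 18 Sertoli cell markers 9 passed the filter, with a median of 0.47. All genes below 1 CPM in HET spermatids had a median of 0.41. The 9 Sertoli markers summed to 6.9 to 9.3 CPM in WT and 21.6, 4.43 and 9.59 CPM in CM. Of the 9, 2 were higher and 0 lower without overlap, against 13.2% and 15.3% of all genes, and DESeq2 called 1, Aard, higher. Without CM library 2 the Sertoli median was 0.92, above that of the spermatogonia markers in the same setting, and 4 of 9 were higher without overlap, against 17.7% of all genes. Amh, their defining hormone, was at 0 in all 6 libraries, and Sox9 had 4, 8 and 2 counts in WT and 16, 0 and 0 in CM. Of 11 Leydig cell markers 3 passed, and Cyp11a1 and Insl3 were at 0 in all 6 libraries. Of 21 macrophage and blood markers 8 passed, with summed levels of 84.1 to 95.2 CPM in WT and 55.4, 26.6 and 37.1 CPM in CM, mostly from Aif1, while C1qa and Hba-a1 were at 0. Aif1 itself stood at 80.2, 79.2 and 91.2 CPM and 52.7, 23 and 33.4 CPM (-1.20 ± 0.30, DESeq2 adjusted p = 0.00914). The lower sum was thus set by Aif1, as Cd68 and Csf1r had WT means of 0.14 and 0.341 CPM. The stromal and endothelial list summed to 13.5 to 14.6 CPM in WT and 13.1 to 21.8 CPM in CM.

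X-linked genes differed from autosomal genes in their distribution. Over 574 X-linked genes the median log2 fold change was 0.49, and 40.9% were above 1, where the autosomes had medians of -0.075 to 0.068 and 14.8 to 19.7% above 1. The share below -1 was 11.5% on the X and 6.14 to 11.3% on the autosomes. The difference in the median lay in CM library 2. The median differences from WT of X-linked genes were -0.075, 0.75 and 0.076 in CM libraries 1, 2 and 3, and the X chromosome took 0.950, 0.999 and 1.02% of counts in WT and 0.802, 1.81 and 0.936% in CM. DESeq2 called 114 X-linked genes higher and 20 lower, against 6.84% and 2.86% of all genes. Without CM library 2 the median was -0.0013. DESeq2 then called 21 of 574 higher and 23 lower, against 201 and 533 of 15298 for all genes. In that setting 19.7% of X-linked genes were above WT and 24.7% below it without overlap, against 17.7% and 20.6% of all genes. All CM libraries were above WT in 108 X-linked genes (18.8%) and below in 107 (18.6%), both over the shares for all genes.

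**Figure D4:**
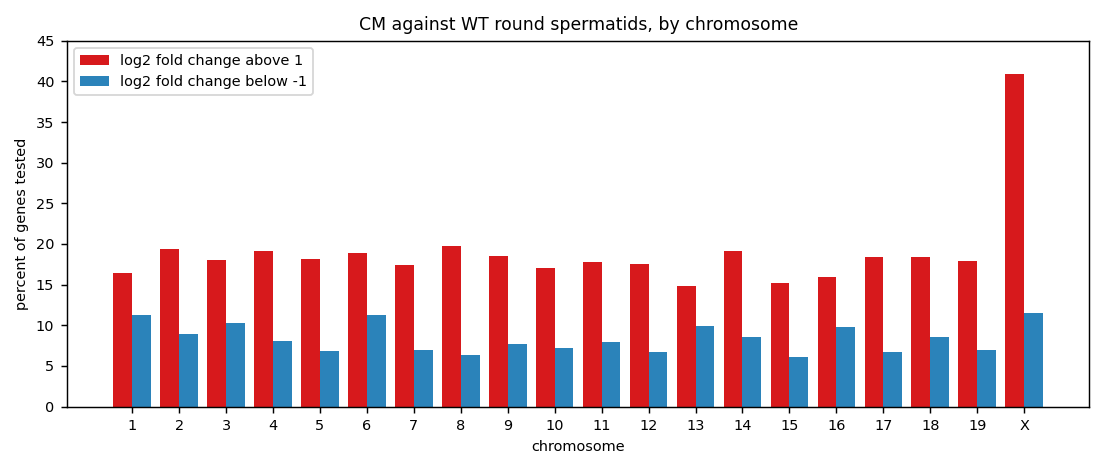
Percent of genes tested with a log2 fold change of CM over WT above 1 (red bars) or below -1 (blue bars) on each autosome and on the X chromosome. The red bar of the X stands at 40.9%, and those of the autosomes between 14.8 and 19.7%.

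The X-linked difference varied with the level of the gene. Genes were split by their level in HET spermatids, libraries outside the comparison. Below 2 CPM, 292 X-linked genes had a median of 1.49 and 57.9% above 1, and the autosomal genes 0.43 and 35.4%. From 2 to 10 CPM the X-linked median was 0.42 with 31.9% above 1, and the autosomal 0.21 with 22%. Above 10 CPM, 119 X-linked genes had a median of -0.27 and the autosomal genes of -0.11, while 11.8% and 3.65% were above 1. The share above 1 was thus higher on the X at all 3 levels, and the median at the lower 2. Atrx, a chromatin remodeller, stood at 8.58, 10.4 and 8.77 CPM in WT and 13, 178 and 34.1 CPM in CM (3.02). Zrsr2, a splicing factor, was at 9.77, 12.6 and 11.7 CPM and 13.3, 200 and 49.4 CPM (2.95). Both were just above WT in CM library 1 and far above it in CM library 2. Ctag2, in contrast, was at 57, 68.4 and 62.2 CPM in WT and 31.4, 31.8 and 34.8 CPM in CM (-0.94), with the 3 CM libraries alike. In the fit of all 12 libraries the X-linked median was -0.33 for HET, -0.58 for KO and 0.44 for CM, against the same WT libraries.

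The stage at which a gene is highest was read from HET spermatocytes and HET round spermatids, a mutant genotype that was not part of the comparison. A count was found for 12443, 12018 and 13406 genes in HET spermatocytes and for 18581, 18752 and 18511 in HET spermatids. WT spermatocytes held 17683 and 17631. Genes missing from the HET spermatocyte libraries can therefore fall into the spermatid bins. The 65 genes over 16-fold higher in HET spermatocytes had a median log2 fold change of 1.02 in CM spermatids, and the 877 genes 4 to 16-fold higher of 0.77. The 6849 genes within 2-fold between the stages had a median of -0.0076. The 1716 genes 4 to 16-fold higher in HET spermatids had a median of -0.61, with library medians of -0.38, -0.77 and -0.57. The 1542 genes over 16-fold higher in spermatids had a median of -0.48, with 28.7% below -1 and 21.6% above 1. The library medians of the first bin were 0.22, 1.14 and 0.67. Genes higher in spermatids by 4 to 16-fold were thus on the lower side in all 3 CM libraries, and those of the first bin on the higher side in all 3. Across 14410 genes, which share libraries and are not independent replicates, the Spearman correlation of the fold change with the stage ratio was -0.361.

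**Figure D5:**
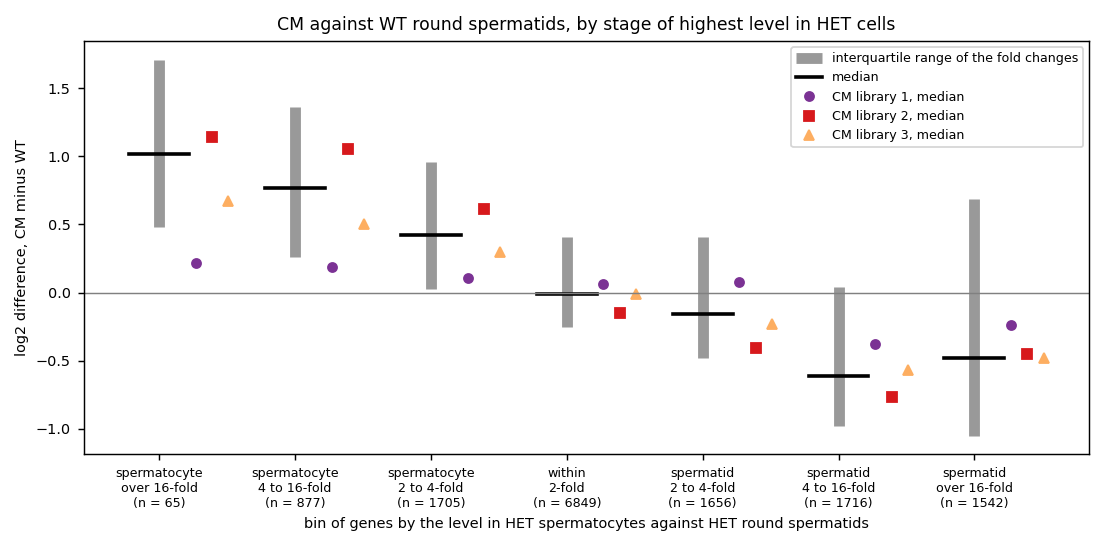
Median log2 difference of CM from WT round spermatids (y axis) in bins of genes ordered by their level in HET spermatocytes against HET round spermatids (x axis, number of genes in brackets), for the fit and for each CM library. The median falls from 1.02 in the bin highest in spermatocytes to -0.61 and -0.48 in the 2 bins highest in spermatids.

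Among genes outside the lists, those with the smallest p were named after their values were seen. On the lower side Gata6, a zinc finger transcription factor, stood at 14.6, 17.4 and 18.5 CPM in WT and 5.06, 4.74 and 4.3 CPM in CM (-1.84 ± 0.27). Ifltd1, a lamin tail domain gene, was at 93.2, 113 and 109 CPM and 39.8, 37.7 and 35.2 CPM (-1.48 ± 0.17), and Pknox2, a homeobox gene, at 115, 115 and 113 CPM and 52.9, 38.5 and 31.2 CPM (-1.48). On the higher side B3galtl, a glycosyltransferase, was at 4.13, 4.13 and 4.08 CPM and 11.4, 10.4 and 14.5 CPM (1.56 ± 0.29, edgeR adjusted p = 0.107). Foxo3, a transcription factor of the insulin pathway, was at 1.07, 0.726 and 0.583 CPM and 3.02, 3.54 and 4.93 CPM (2.26 ± 0.47), and Cdkn2a, a cell cycle inhibitor locus, at 2.19, 1.2 and 1.3 CPM and 5.66, 12.2 and 4.9 CPM (2.28). In B3galtl and Foxo3 all 3 CM libraries were well above WT and CM library 2 was not the highest, while in Cdkn2a it was.

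The study singled out 24 genes, partly on these samples, so their direction here is not independent evidence. Of these 22 were tested, and 5 were lower and 1 higher without overlap, against 15.3% and 13.2% of all genes. DESeq2 called Spo11, Dhrs4 and Tssk3 lower and Fads2, Kit and Cask higher, 3 of 22 on each side against 2.86% and 6.84% of all genes. Dhrs4, a short chain reductase of retinoids, stood at 59.5, 59.7 and 62.8 CPM in WT and 27.9, 17.1 and 28.3 CPM in CM (-1.31 ± 0.24, edgeR adjusted p = 0.107, DESeq2 adjusted p = 0.000292). HET spermatids were at 33.8, 34 and 31.9 CPM and KO spermatids at 56, 54.6 and 49.6 CPM. Dhrs4 was also called lower in CM whole testis (-1.57, edgeR adjusted p = 0.0194) and CM spermatocytes (-1.74, edgeR adjusted p = 0.0205). Prss50, a testis protease, was near the floor in spermatids, at 0.649, 0.643 and 1.15 CPM in WT and 0, 1.18 and 0.586 CPM in CM, so that no difference was detectable at this depth (-0.46 ± 1.39), while it was called lower in CM whole testis (-2.33, edgeR adjusted p = 0.0161). Mfi2, an iron binding surface protein, was at 12.8, 13.6 and 14.5 CPM in WT and 10.9, 6.74 and 10.3 CPM in CM (-0.55 ± 0.29). Cask, an X-linked scaffold protein, was at 0.936, 1.2 and 1.34 CPM and 0.761, 21.1 and 3.89 CPM (2.89), below WT in CM library 1. Syce2 had a log2 fold change of 0.11 and Crisp2 of -0.27.

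CTCF and BORIS peaks were taken from ChIP-seq of whole testis, which holds many cell types, with 1 peak list for each antibody and genotype, so binding in the sorted spermatids was not measured. Within 2 kb of a start, 2415 genes had a WT peak of both proteins, 3168 of CTCF alone and 567 of BORIS alone, out of 14597. Their median log2 fold changes were 0.11, 0.059 and 0.14, against -0.039 for the 8447 genes with no peak and 0.016 for all. DESeq2 called 8.45% higher and 1.61% lower with both proteins, 12% and 0.529% with BORIS alone, and 7.08% and 2.66% over all genes with an annotated start. Of the DESeq2-lower genes 23.4% had a CTCF peak and of the DESeq2-higher genes 41.1%, against 38.2% of all. Among genes with both proteins, the 1060 without a CTCF peak in CM had a median of 0.17 and the 1355 with one of 0.046. These are differences of under 0.2 log2 units, and they were not tested. At Rltpr the CTCF peak 358 bases before the start had a height of 2726 in WT, and the CM list held a peak of height 191 there.

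RNA polymerase II and H3K4me3 peaks from the same tissue went further apart. The 303 genes with a polymerase II peak at the start in the WT list and not in the CM list had a median log2 fold change of -0.42 in spermatids. DESeq2 called 15.5% of them lower, against 2.66% of all genes with an annotated start. The 1583 genes with a peak in the CM list alone had a median of 0.47, and DESeq2 called 16% higher, against 7.08% of all. The 8284 genes with a peak in both had a median of -0.008. For H3K4me3, a mark of active promoters, the 413 genes with a peak in WT alone had a median of -0.10 and the 1042 with one in CM alone of 0.37.

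The same genotypes were compared in whole testis and in spermatocytes, from other libraries of the series. In whole testis edgeR called 2502 genes higher (15.3%) and 966 lower (5.9%), 3468 in all. That count was 11 without WT library 2, 3 without WT library 3, 4 without CM library 3 and 1814 without WT library 1. Of the genes DESeq2 called higher in CM spermatids, 412 of 1024 tested (40.2%) were called higher in whole testis, with a median of 0.96. Of those it called lower, 187 of 425 (44%) were called lower, with a median of -1.06. The 15 round spermatid markers were all negative in whole testis as well, with a median of -1.01, and 7 were called lower. Flagellum genes were called lower in 17 of 48, and cholesterol and fatty acid genes higher in 15 of 31. Somatic markers were higher there too. Of macrophage and blood markers 7 of 8 were called higher, of stromal and endothelial markers 7 of 15, with 1 lower, and of Sertoli markers 3 of 9. Of all genes tested in spermatids, 11.9% were called higher in whole testis and 6.31% lower. The part of cell type shares in the whole testis values was not tested. Kit stood at 31.9, 36.8 and 16.9 CPM in WT testis and 355, 80.3 and 189 CPM in CM testis (2.86, edgeR adjusted p = 0.0159). Stra8 was at 1.54, 0.965 and 0.838 CPM and 2.25, 2.17 and 2.09 CPM there (0.91, edgeR adjusted p = 0.0857). Of 503 X-linked genes 146 (29%) were called higher in whole testis.

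Spermatocytes went another way for the spermatid genes. There edgeR called 50 genes higher (0.339%) and 14 lower (0.0949%), a total of 64 that was 0 without CM library 2 or 3 and 2163 without CM library 1. All 15 round spermatid markers had a positive log2 fold change in CM spermatocytes, with a median of 1.54, and none was called. Akap4 was at 10.1 and 9.32 CPM in WT and 11.3, 31 and 58.6 CPM in CM (1.79, edgeR adjusted p = 0.124), levels far under those of spermatids. Of the genes DESeq2 called lower in CM spermatids, 355 of 409 were positive in CM spermatocytes, with a median of 1.19. X-linked genes had a median of 2.34 there, with 372 of 380 positive. Of all genes tested in spermatids, 7039 of 13891 were positive in CM spermatocytes, with a median of 0.0087. By edgeR 9 X-linked genes (2.37%) were called higher there, against 0.36% of all. Dazl was at 52.7 and 43.1 CPM in WT spermatocytes and 87.3, 105 and 116 CPM in CM (1.10, edgeR adjusted p = 0.0502).

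The effect of both deletions together was set against the sum of the single ones in the fit of all 12 spermatid libraries, as CM minus HET minus KO plus WT on the log2 scale. It was above the sum in 2549 of 16200 genes (15.7%) and below it in 2564 (15.8%). In that fit CM against WT gave 1217 genes higher and 770 lower, KO against WT 1485 and 1448, and HET against WT 28 and 206. The genes above the sum had medians of 0.35 in CM, -0.43 in HET and -1.07 in KO. Those below it had medians of -0.21 in CM, 0.52 in HET and 1.05 in KO. In 1620 of the 2549 and 2233 of the 2564, CM lay within 2-fold of WT. The KO libraries held a count for 18794 to 18978 genes, more than any WT or CM library. A difference particular to the libraries of a single genotype cannot be told apart from an interaction of the deletions.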

How the data were processed

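Poly(A) RNA of sorted round spermatids was sequenced single-end and aligned by the authors to mm9 with STAR; the counting tool, annotation and strand setting are not given in the sources used here. The deposited table holds raw counts for 23284 gene symbols, of which 21756 matched the mm9 annotation used here. Antisense and overlapping genes and near-identical copies are therefore uncertain. Libraries of whole testis were rRNA-depleted and aligned by the authors with TopHat2 and Bowtie2, and their raw counts come as a separate deposited table, tested apart. Of the peak lists, called by the authors with MACS, those of CTCF and BORIS give peak height as deposited and those of RNA polymerase II and H3K4me3 give the MACS score as deposited, which was used only as presence of a peak.

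Counts were filtered with filterByExpr (minimum count 10) and scaled by TMM. CM and WT were compared with edgeR 4.0.16 (R 4.3.3), by the quasi-likelihood test with robust dispersion and no covariate, with Benjamini-Hochberg adjustment over all 15298 genes tested. A gene was called at an adjusted p under 0.05 and a fold change over 2. ± after a log2 fold change is its standard error. DESeq2 1.42.0, limma 3.58.1 (voom with sample weights), RLE scaling, no filter, a GC offset, a replicate block, all 12 spermatid libraries in one fit and leaving out each library were tried as alternatives. Leaving out libraries under DESeq2 and in the counts of genes whose groups do not overlap was added after the data were seen. Differences of single libraries from the WT mean are on the log2(CPM + 0.5) scale, which understates the change of low genes. Non-additivity was the interaction contrast in the 12-library fit. Peaks were assigned within 2 kb of a start. The fits were tested on simulated counts.

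The members and gene lists were chosen with earlier results of these data known. Named were the deleted genes and their neighbours, genes the study names, called genes by p and by level, the members of each list with the largest changes, and genes of the interaction contrast. Other list members and the genes of smallest p were added after their values were seen. Replicate numbers deviated together in whole testis (correlations of 0.564, 0.175 and 0.28), which the labels do not explain, and with that block edgeR called 3002 genes higher and 1418 lower there. Depth was 50861159 to 98545423 counts per spermatid library. No floor or interval is given for shares of reads, and the spread between libraries is the error throughout.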

Additional observations from a re-analysis of the deposited data

Results flagged for a closer look

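The test of the interaction between the deletions, over 12 spermatid libraries and 16200 genes, was passed by 2549 genes with CM above the sum of the single mutants and by 2564 with CM below it (edgeR adjusted p under 0.05 and over 2-fold). The 6 genes of smallest p on each side are given here, with levels scaled over the 12 libraries. Rpf2, a ribosome assembly factor, differed from the sum by 3.63 ± 0.26 log2 units (edgeR adjusted p = 9.21e-05). It stood at 129, 144 and 159 CPM in WT, 71.2, 48 and 70.8 CPM in HET, 19.6, 20 and 24.7 CPM in KO and 101, 125 and 125 CPM in CM, so KO was far below the others and CM next to WT. Zranb2, a splicing factor, was at 761, 917 and 984 CPM in WT, 121, 119 and 126 CPM in KO and 682, 828 and 1170 CPM in CM (3.84 ± 0.32). The other genes above the sum were Snx4 (2.91), Zfp326 (3.92), Hnrnpr (3.27) and Hspb11 (3.71), each with its lowest level in KO.

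On the other side Fam108a differed from the sum by -3.17 ± 0.33 log2 units, with 20.5, 14.5 and 15.1 CPM in WT, 83.3, 80.3 and 65.9 CPM in KO and 18.6, 13.4 and 11.6 CPM in CM. Gltscr2, a nucleolar protein, differed by -1.77, Arhgap33 by -2.99 and Fscn1, an actin bundling protein, by -2.91. Rpl13 (-3.1) and Rpl24 (-1.95), which encode ribosomal proteins and share reads with many pseudogene copies, are uncertain. All 6 were highest in KO. The 12 genes kept their direction and their call with DESeq2, with the replicate block and without each CM library. They were picked by p from the same libraries, and no WT, HET or KO library was left out for this contrast. These settings therefore do not test the KO levels, in which the 12 genes differ most. A difference particular to the KO libraries cannot be told apart from an interaction.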

How the results depend on the processing

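Rltpr was above WT in every setting. The count of genes called higher, 1 by edgeR, was 1052 with DESeq2 (24 at an adjusted p under 0.001), 0 with edgeR at that threshold, 1217 in the fit of 12 libraries, 366 with voom weights and 384 with the GC offset. The count called lower, 0 by edgeR, was 439, 114, 0, 770, 450 and 5 in the same order. Leaving out 1 library gave 0 to 380 higher and 0 to 431 lower, both most without CM library 1. DESeq2 without WT library 1, 2 or 3 called 363, 75 and 78 higher and 338, 60 and 70 lower, and without CM library 1, 2 or 3 it called 2034, 209 and 1313 higher and 1210, 571 and 465 lower. RLE scaling, no filter and the replicate block gave 1 higher and 0 lower, as reported. Replicate numbers did not pair the spermatid libraries (correlations of deviations 0.098, 0.0105 and 0.0514). Groups without overlap and over 2-fold numbered 833 to 2463 on the higher side. The interaction count of 5113 was 5448 to 7005 without 1 CM library. Whole testis calls ranged from 3 to 4383 without 1 library, and spermatocyte calls from 0 to 2163 and 1142 with DESeq2. With DESeq2 calls, 587 called genes in place of 1 had a CTCF or BORIS peak at the start. The cause was not tested.

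The median of all genes moved to 0.16 with the GC offset and stayed within 0.081 of 0 elsewhere. The median of the round spermatid markers ranged from -1.21 to -0.76 over 19 settings, that of spermatogonia markers from 0.63 to 2.29 and that of X-linked genes from -0.0013 to 0.72. Of 135 named genes 13 changed sign in some setting, none of them called by edgeR. With voom, Ankrd52 was -1.63, Spns2 -2.51, Syce2 -0.32, Scarb1 -0.41, Taf4b -0.045 and Slc26a3 -1.73. Without CM library 2, by DESeq2, Ankrd52 was -0.64, Syce2 -0.30, Scarb1 -0.40 and Taf4b -0.12. With the GC offset Fert2 was 0.041, Hspb11 0.078 and Fam108a 0.088. With the replicate block Spns2 was -0.10, and in the 12-library fit Gltscr2 was -0.01. DESeq2 without 1 library gave Prss50 0.15, Zranb2 -0.037 and -0.17, Hspb11 0.033 and 0.05, Fam108a 0.023 and Gltscr2 -0.021. Over the edgeR fits without 1 library the log2 fold change ranged from -1.49 to 0.14 for Prss50, -0.64 to 1.65 for Ankrd52, -0.30 to 0.32 for Syce2, -0.016 to 0.59 for Star, -0.40 to 0.70 for Scarb1, -0.12 to 1.43 for Taf4b, -0.19 to 0.25 for Zranb2, -0.26 to 0.043 for Hspb11 and -0.03 to 0.092 for Gltscr2.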
